A study of Mus musculus with 22 samples.

Results

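The 3 genes described here are Pou5f1, Nanog and Sox2, the core trio of transcription factors of pluripotent cells, chosen by name as 3 of the 37680 gene rows of the count table. Their values were taken from 22 RNA-seq libraries of whole C57BL/6 mouse embryos, each made from a pool of embryos, in 8 groups. Every group carried 1 copy of a ROSA26 transgene together with either an Oct4 transgene (genotype ROSA26tg/+; Oct4tg/+) or a Nanog transgene (ROSA26tg/+; Nanogtg/+), controls included, and the labels do not say what drives either transgene or what the ROSA26 transgene holds. Oct4 E7.5 induced had 3 pools and Oct4 E7.5 control 3. Oct4 E9.5 induced had 3 pools and Oct4 E9.5 control 3. Nanog E7.5 induced had 3 pools and Nanog E7.5 control 2. Nanog E9.5 induced had 3 pools and Nanog E9.5 control 2. A pool held 8 to 12 embryos at E7.5 and 3 embryos at E9.5, and pools that share a group were treated as its replicates. Induced embryos came from mothers given doxycycline, by injection at E4.5 and then in water for the E7.5 groups and in water from E6.5 for the E9.5 groups. Regimen and pool size thus changed with the stage, and in a contrast of stages these cannot be told apart. Control pools are labelled as without doxycycline, and no group received doxycycline without an inducible transgene, so the drug and the transgene cannot be told apart.

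Pou5f1 encodes Oct4, a POU-domain factor that binds an octamer of DNA. Sox2 is an HMG-box factor that often binds next to Oct4 on a joined OCT-SOX element, and Nanog is a homeodomain factor that shares many target genes with both. In the mouse embryo Oct4 is kept in the epiblast until gastrulation ends and afterwards only in primordial germ cells. Nanog returns in the posterior epiblast of the implanted embryo, while Sox2 stays on in the neural plate and neural tube and is also made in the extraembryonic ectoderm.

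The promoters of the 3 genes are shown because the OCT-SOX element is where these factors are known to meet. They were taken from RefSeq (build GRCm38.p6), 250 bases before to 50 bases after the first listed start of each gene, on the plus strand. Capitals mark matches, on either strand, to the octamer core ATGCAAA, the SOX core ACAATG, the nuclear receptor core AGGTCA and the OCT-SOX composite, which is the reversed octamer core TTTGCAT, then 1 base of any kind, then ACAATG.
Pou5f1 promoter, chr17:35505782-35506081: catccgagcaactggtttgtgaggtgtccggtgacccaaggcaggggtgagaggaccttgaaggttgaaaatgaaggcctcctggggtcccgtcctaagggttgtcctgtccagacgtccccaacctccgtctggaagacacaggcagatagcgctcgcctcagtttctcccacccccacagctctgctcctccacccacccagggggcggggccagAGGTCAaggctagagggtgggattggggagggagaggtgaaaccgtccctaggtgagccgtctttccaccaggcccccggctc
Nanog promoter, chr6:122707239-122707538: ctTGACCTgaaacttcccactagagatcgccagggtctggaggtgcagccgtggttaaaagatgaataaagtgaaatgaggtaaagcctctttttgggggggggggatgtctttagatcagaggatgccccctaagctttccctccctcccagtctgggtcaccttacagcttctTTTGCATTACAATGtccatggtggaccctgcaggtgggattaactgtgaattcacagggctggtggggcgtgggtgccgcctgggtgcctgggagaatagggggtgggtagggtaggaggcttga
Sox2 promoter, chr3:34649745-34650044: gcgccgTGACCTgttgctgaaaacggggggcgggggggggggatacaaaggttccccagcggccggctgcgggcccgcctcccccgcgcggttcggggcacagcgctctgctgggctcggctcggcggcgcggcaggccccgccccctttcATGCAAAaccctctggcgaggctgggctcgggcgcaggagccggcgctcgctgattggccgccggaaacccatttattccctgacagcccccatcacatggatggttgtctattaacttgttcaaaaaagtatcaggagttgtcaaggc
In the Nanog window the composite lay at positions -75 to -62 from the start, the octamer and SOX core matches there are parts of it, and the reverse of AGGTCA lay at -248 to -243. The letters of the composite are those known from Nanog itself, so its presence there is not a result. Of 32851 promoter windows of the same length it was found in 2 (0.00609%), both of them start sites of Nanog. The Sox2 window held the octamer core at positions -99 to -93, a match found in 4.63% of windows, and the reverse of AGGTCA at -244 to -239. The Pou5f1 window held AGGTCA at positions -33 to -28, a core that 16.3% of windows contain. The SOX core ACAATG was in 12.6% of windows, and its letters were absent from the windows shown for Pou5f1 and Sox2. The window of the second listed Pou5f1 start, not shown, held it at positions -158 to -153. A match is a run of letters and was not tested for binding.

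Levels are counts per 1000000 gene counts of the library (CPM), as mean ± SD over pools. Depth was 4.72 M counts in the shallowest library and 42.3 M in the deepest, and a gene at 0 could still have a level of up to 3 counts, or 0.0709 to 0.636 CPM by library. The p-values measure the spread between pools, which may be partly technical. The 3 induced Nanog E7.5 libraries stood apart: 5.27% to 8.26% of their counts were mitochondrial, against 3.30% to 3.63% in their controls, and gene models under 80 nt summed to 0.575 to 1.13 CPM against 31.3 to 36.8 CPM in their controls. The short models summed to 0.634 to 2.02 CPM in all E9.5 pools and to 29.0 to 51.9 CPM in the E7.5 pools of the Oct4 line. The labels name 2 sequencers and assign no library to either. In Nanog E7.5, induction and whatever else sets these libraries apart cannot be told apart. Visceral endoderm and yolk sac markers, a list of 13 of which 12 were matched, summed to 106 to 149 CPM over the E9.5 pools and to 1410 to 5136 CPM over the E7.5 pools, far higher at E7.5.

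In NCBIM37, the build of the table, Pou5f1 (ENSMUSG00000024406) lies on chromosome 17 from 35642982 to 35647721, with 2256 nt of exon in 6 blocks. Nanog (ENSMUSG00000012396) lies on chromosome 6 from 122657507 to 122664651, with 2242 nt in 5 blocks. Sox2 (ENSMUSG00000074637) is a gene of 1 exon of 2457 nt on chromosome 3 from 34548927 to 34551383. All 3 are protein coding and on the plus strand. Counts of Pou5f1 and Sox2 were whole numbers in 22 of 22 libraries. Counts of Nanog were whole in 1, which means that RSEM shared its reads with other genes, so Nanog values are uncertain by that share. Of 9 pseudogenes of the trio named in RefSeq, 1 had a row, Gm6539 of Pou5f1, and it was at 0 in every library. Transgene and endogenous transcripts of Pou5f1 and Nanog are counted together.

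In control embryos Pou5f1 and Nanog fell and Sox2 rose between E7.5 and E9.5. Pou5f1 read 0.892, 0.423 and 1.295 CPM in the E9.5 control pools of the Oct4 line, against 242, 203 and 209 CPM in the E7.5 ones. These E9.5 values rest on 8, 6 and 10 reads. In the Nanog line it read 0.952 and 1.02 CPM in E9.5 controls and 245 and 222 CPM in E7.5 controls. The groups were far apart in both lines. The log2 fold change was -8.31 ± 0.17 (SE) in the Oct4 line (adjusted p = 1.9e-10, edgeR quasi-likelihood test, as for every adjusted p below) and -7.93 ± 0.12 in the Nanog line (adjusted p = 1.3e-14). In whole-embryo RNA, fewer cells of a type and less RNA per cell cannot be told apart.

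Nanog read 0.419, 0.994 and 1.168 CPM in E9.5 controls of the Oct4 line, against 20.5, 17.6 and 17.2 CPM in its E7.5 controls. In the Nanog line the values were 2.35 and 2.06 CPM in E9.5 controls and 22.8 and 17.2 CPM in E7.5 controls. No E9.5 control pool came near any E7.5 one. Its log2 fold change was -4.59 ± 0.21 in the Oct4 line (adjusted p = 1.0e-08) and -3.24 ± 0.22 in the Nanog line (adjusted p = 2.6e-08).

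Sox2 went the other way. It read 107, 110 and 104 CPM in E9.5 controls of the Oct4 line, against 51.4, 29.1 and 37.2 CPM in its E7.5 controls. In the Nanog line it read 95.7 and 114 CPM in E9.5 controls and 47.2 and 40.9 CPM in E7.5 controls. The lowest E9.5 control pool lay well above the highest E7.5 one. Sox2 rose by 1.26 ± 0.20 on the log2 scale in the Oct4 line (adjusted p = 0.00168) and by 1.19 ± 0.10 in the Nanog line (adjusted p = 1.3e-06). Between these 2 stages 73.5% of genes tested in the Oct4 line and 63.8% in the Nanog line were called, so a call by itself sets none of the trio apart. The list of neural plate and neural progenitor genes, which includes the SoxB partners Sox3 and Sox21, was called higher at E9.5 for 11 of 14 tested members in the Oct4 line and lower for 1, and for 9 and 2 of 14 in the Nanog line. Background was 36.5% higher and 37.1% lower in the Oct4 line, and 31.8% and 32.0% in the Nanog line. Of 25 network partners, 22 were tested in each line. Of these, 19 fell and 0 rose in the Oct4 line, and 20 fell and 0 rose in the Nanog line. Only 11 of the 25 passed the count filter in the Oct4 E9.5 induction, and 9 in the Nanog E9.5 induction. Many thus entered the contrast of stages through their E7.5 pools, and the falls of those say nothing for the list. Of the neural list, 12 of 14 passed the filter in Oct4 E7.5 and 10 of 14 in Nanog E7.5.

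**Figure D1:**
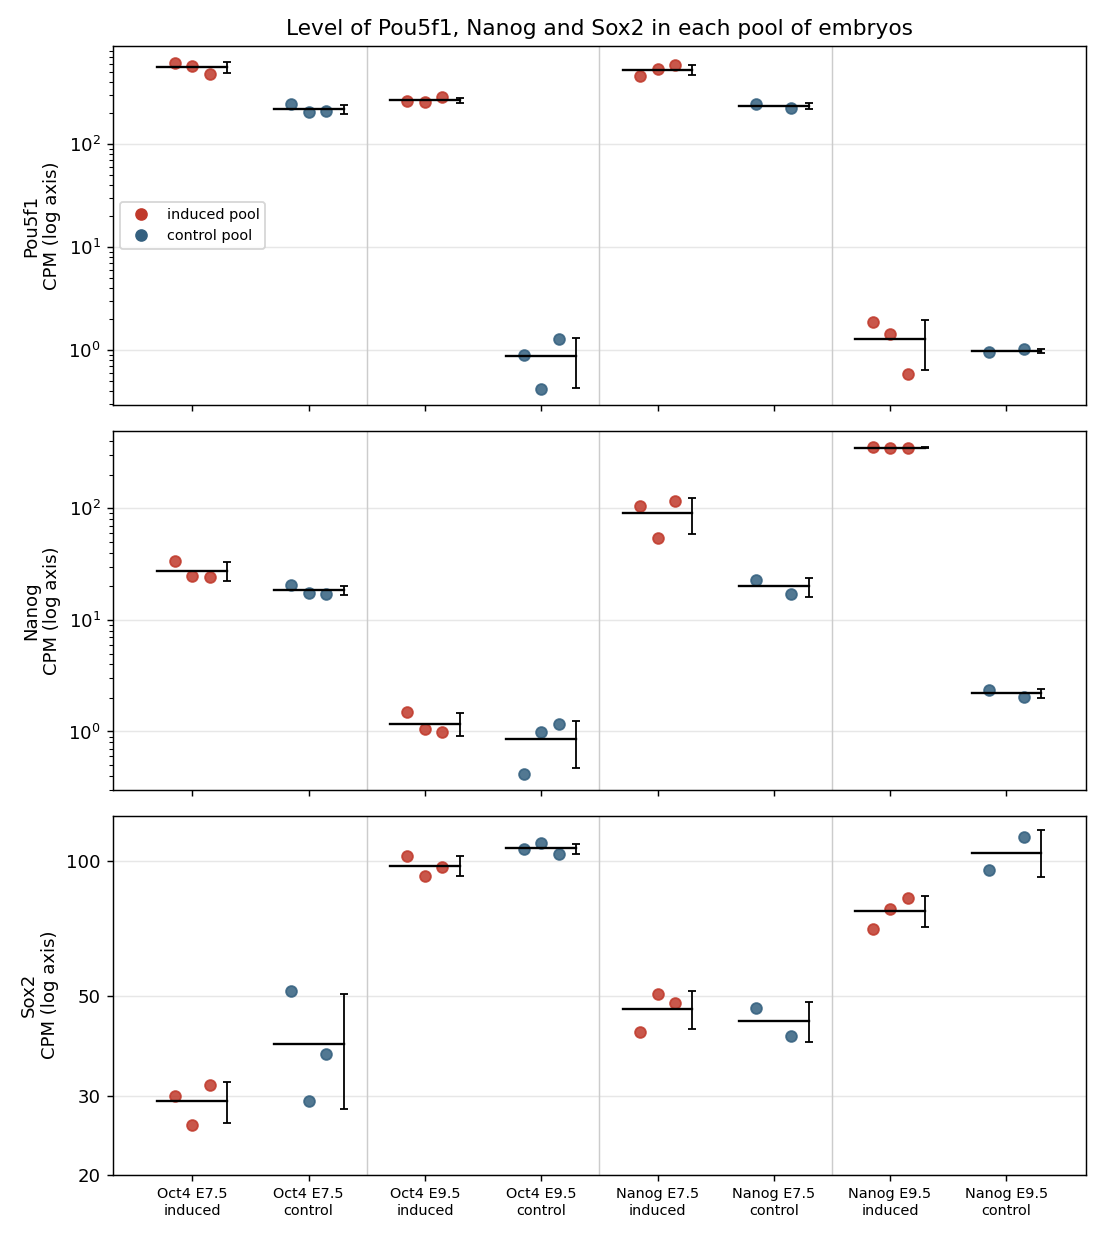
Level of Pou5f1, Nanog and Sox2 in CPM on a log axis, 1 point per pool, for the 8 groups, with the group mean as a bar and the SD at its right. Pou5f1 is between 257 and 283 CPM in Oct4 E9.5 induced pools and at 0.423 to 1.295 CPM in their controls, Nanog is between 348 and 354 CPM in Nanog E9.5 induced pools and at 2.06 to 2.35 CPM in their controls, and Sox2 stays between 25.8 and 114 CPM throughout.

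Pou5f1 rose under Oct4 induction at both stages, and by a far larger fold at E9.5, where the control level was close to that of a few reads. At E7.5 Pou5f1 read 606, 577 and 477 CPM in induced pools, against 242, 203 and 209 CPM in controls. The mean was 553 ± 67.4 CPM in induced pools and 218 ± 21.3 CPM in controls (n = 3 each), and every induced pool was above every control pool. On the log2 scale the difference was 1.38 ± 0.11 (adjusted p = 3.7e-04), 2.60-fold, in a comparison where 6.17% of genes were called. At E9.5 it read 260, 257 and 283 CPM in induced pools, against 0.892, 0.423 and 1.295 CPM in controls. The induced pools lay close together and far above the controls, and the gene passed the count filter through them. The log2 fold change was 8.39 ± 0.12 (adjusted p = 8.0e-15), the third from the top of 13957 genes tested, of which 9.29% were called. The difference between the stages was itself 7.01 ± 0.24 on the log2 scale (adjusted p = 7.4e-10, with 6.69% of genes called). Oct4 transgene reads are counted as Pou5f1 here, so this difference and the rank at E9.5 were largely set by the design. In absolute terms the gain was 266 ± 8.40 CPM at E9.5 and 335 ± 40.8 CPM at E7.5 (difference of means ± its SE).

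Nanog was modestly higher in Oct4 E7.5 induced pools and was not detectably changed at E9.5. At E7.5 it read 34.0, 24.8 and 24.3 CPM in induced pools, against 20.5, 17.6 and 17.2 CPM in controls. The groups did not overlap, but the lowest induced pool was only a few CPM above the highest control. Its log2 fold change was 0.62 ± 0.13 (adjusted p = 0.0272). This call was lost without control replicate 1 (adjusted p = 0.0699), 2 (0.104) or 3 (0.134), and with 1 model over all 22 libraries (0.0631). At E9.5 Nanog read 1.49, 1.06 and 0.979 CPM in induced pools and 0.419, 0.994 and 1.168 CPM in controls, on at most 15.5 counts a library. The ranges overlapped and the gene did not pass the count filter. Fitted without that filter the log2 fold change was 0.42 ± 0.49, with a 95% interval of -0.54 to 1.37 (adjusted p = 0.682).

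Sox2 did not pass the test in either Oct4 comparison. At E7.5 it read 30.01, 25.8 and 31.8 CPM in induced pools, against 51.4, 29.1 and 37.2 CPM in controls. Control replicate 1 was high and the ranges overlapped. On the log2 scale the difference was -0.39 ± 0.18, with a 95% interval of -0.79 to 0.01 (adjusted p = 0.302). It was -0.17 without control replicate 1 and -0.56 without control replicate 2, past the threshold in neither. At E9.5 it read 103, 92.7 and 97.3 CPM in induced pools, against 107, 110 and 104 CPM in controls. The highest induced pool was just below the lowest control pool. The log2 fold change was -0.13 ± 0.05, with an interval of -0.24 to -0.03 (adjusted p = 0.0968).

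Nanog induction came with higher Pou5f1 at E7.5, of about the size that Oct4 induction gave. Pou5f1 read 460, 534 and 581 CPM in Nanog E7.5 induced pools, against 245 and 222 CPM in controls. The mean was 525 ± 60.9 CPM in induced pools (n = 3) and 234 ± 15.7 CPM in controls (n = 2), with a wide gap between them. Its log2 fold change was 1.22 ± 0.12 (adjusted p = 9.5e-04) where 7.78% of genes were called. Set against Oct4 induction at E7.5, the difference of the 2 log2 fold changes was -0.15 ± 0.17, with a 95% interval of -0.52 to 0.22 (adjusted p = 0.856). The 2 are unlike quantities, since Pou5f1 counts include Oct4 transgene reads in the Oct4 line only. The library differences given above for Nanog E7.5 apply here too. At E9.5 Pou5f1 read 1.89, 1.42 and 0.583 CPM in Nanog induced pools, on 9, 8 and 3 reads, and 0.952 and 1.02 CPM in controls, on 15 and 16. The induced pools lay on both sides of the controls and the gene did not pass the count filter. Without it the log2 fold change was 0.32 ± 0.51, with an interval of -0.67 to 1.32 (adjusted p = 0.715).

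Nanog itself was far higher at E9.5 under its own induction and more variable at E7.5. At E9.5 it read 354, 349 and 348 CPM in induced pools, against 2.35 and 2.06 CPM in controls. The induced pools differed by a few CPM only. On the log2 scale the difference was 7.27 ± 0.10 (adjusted p = 1.4e-18), the seventh from the top of 13305 genes, of which 28.4% were called. At E7.5 it read 104, 53.9 and 117 CPM in induced pools (replicates 1, 3 and 4), against 22.8 and 17.2 CPM in controls. All induced pools were above the controls, and induced replicate 3 was well below the other induced pools. The log2 fold change was 2.24 ± 0.45, with a 95% interval of 0.97 to 3.4995, and did not pass (adjusted p = 0.0752). It passed without induced replicate 3 (2.52 ± 0.16, adjusted p = 5.3e-04), with DESeq2 (3.3e-05), in 1 model of all 22 libraries (2.1e-05) and when set against the controls of the Oct4 line (0.00528). The difference between the stages was 5.03 ± 0.60 (adjusted p = 0.00373, with 12.8% of genes called). Nanog transgene reads are counted here, so this difference and the rank at E9.5 were largely set by the design.

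Sox2 fell in Nanog E9.5 induced pools. It read 70.8, 78.3 and 83.0 CPM in induced pools, against 95.7 and 114 CPM in controls. The mean was 77.4 ± 6.13 CPM in induced pools (n = 3) and 105 ± 12.5 CPM in controls (n = 2), without overlap. Its log2 fold change was -0.47 ± 0.08 (adjusted p = 0.001003), and the call held without any 1 pool (highest adjusted p = 0.0250). Of all genes tested 13.0% were called lower in this comparison. The induced libraries held 4.77 to 5.63 M counts, against 15.66 to 15.76 M in controls. Their mitochondrial share was 2.23% to 2.44%, against 2.82% to 2.88% in controls. The Oct4 E9.5 pools were at 2.27% to 2.34% when induced and 2.38% to 2.43% in controls. In this share it was thus the 2 Nanog E9.5 control pools that stood apart. Induction and whatever else sets the induced and control libraries apart cannot be told apart. At E7.5 Sox2 read 41.6, 50.6 and 48.3 CPM in induced pools and 47.2 and 40.9 CPM in controls. Most of the 2 ranges overlapped. On the log2 scale the difference was 0.14 ± 0.13, with a 95% interval of -0.15 to 0.43 (adjusted p = 0.553), and leaving out 1 pool in turn gave 0.0336 to 0.25, none past the threshold.

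**Figure D2:**
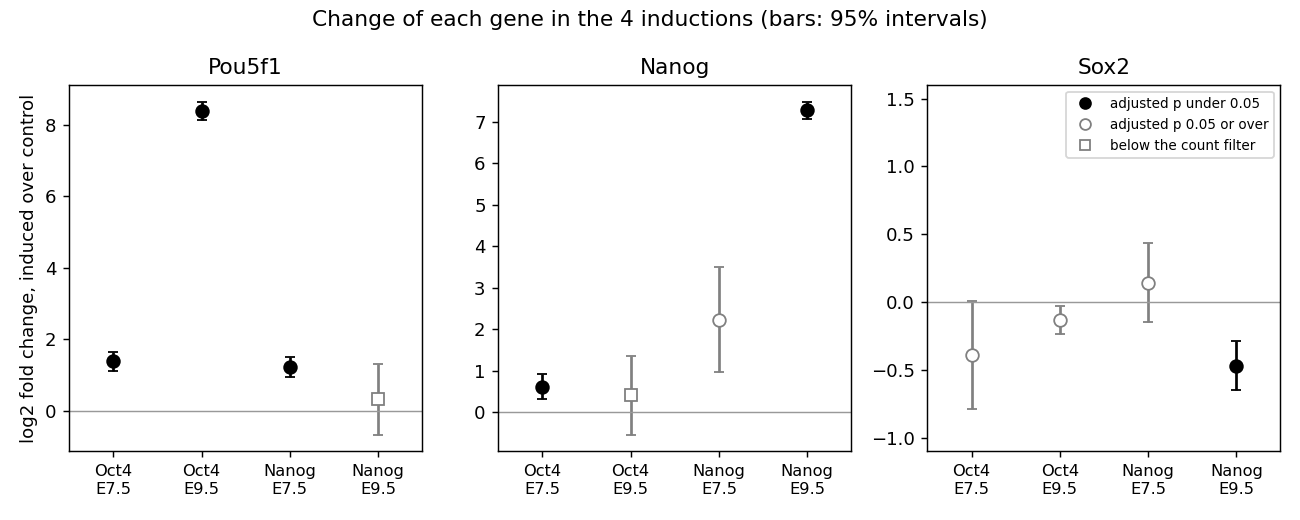
Log2 fold change of each gene, induced over control, with its 95% interval in the 4 inductions; filled circles passed the test, open circles did not, and open squares are from the fit without the count filter. The y axes differ: Pou5f1 reaches 8.39 in Oct4 E9.5 and Nanog 7.27 in Nanog E9.5, while Sox2 runs from -0.47 to 0.14.

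The E9.5 inductions differed from each other for all 3 genes, and the E7.5 ones for none at the threshold. For Pou5f1 and Nanog the E9.5 outcome was largely set by the design, since each is counted with its induced transgene in 1 line only. At E9.5 the log2 fold change under Nanog induction minus that under Oct4 induction was -8.05 ± 0.53 for Pou5f1 (adjusted p = 4.1e-09) and 6.83 ± 0.43 for Nanog (adjusted p = 1.6e-09). It was -0.34 ± 0.10 for Sox2 (adjusted p = 0.0248), in a comparison where 13.5% of genes were called. The Sox2 difference was lost without Oct4 induced replicate 3 (0.0747), Nanog induced replicate 1 (0.0597), Nanog induced replicate 2 (0.0529) or Nanog control replicate 3 (0.177), and with 1 model over all 22 libraries (0.447). At E7.5 the same difference was 1.63 ± 0.40 for Nanog (adjusted p = 0.203) and 0.54 ± 0.25 for Sox2 (adjusted p = 0.491), where only 0.204% of genes were called. The Nanog difference passed without Nanog induced replicate 3 (0.00354), with DESeq2 (0.00128) and with 1 model over all 22 libraries (0.0225). Within the Nanog line the Sox2 change at E9.5 minus that at E7.5 was -0.63 ± 0.16 (adjusted p = 0.0236). It was lost without Nanog E7.5 control replicate 3 (0.136), E9.5 induced replicate 1 (0.0567) or 2 (0.0517), E9.5 control replicate 3 (0.131), or with 1 model over all libraries (0.0647).

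Controls of the 2 lines were close to each other for Pou5f1 and Sox2 at both stages. At E7.5 the log2 fold change of Nanog line controls over Oct4 line controls was 0.03 ± 0.09 for Pou5f1, 0.04 ± 0.14 for Nanog and 0.10 ± 0.25 for Sox2 (adjusted p of 0.849 to 0.892), where 7.05% of genes were called. At E9.5 it was 0.32 ± 0.48 for Pou5f1 (adjusted p = 0.668) and 0.0035 ± 0.0654 for Sox2 (adjusted p = 0.977). Nanog was higher at E9.5 in the controls of its own line, with 2.35 and 2.06 CPM in Nanog line controls and 0.419, 0.994 and 1.168 CPM in Oct4 line controls. The log2 fold change was 1.36 ± 0.38 (adjusted p = 0.0186), with 25.6% of genes called. The call was lost without Nanog control replicate 2 (0.167) or 3 (0.0809), with DESeq2 (0.0898) and with 1 model over all libraries (0.188).

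Ranked over the 8 groups, Pou5f1 was highest in Oct4 E7.5 induced and Nanog E7.5 induced pools, whose ranges overlapped. Oct4 E9.5 induced pools came next, at 267 ± 14.6 CPM (n = 3), above the E7.5 controls of the Nanog line and of the Oct4 line, which overlapped. With TMM scaling over all 22 libraries the Oct4 E9.5 induced level was 245 ± 11.8 CPM and its range overlapped that of Oct4 E7.5 controls at 243 ± 20.5 CPM. The 3 other E9.5 groups were at 0.870 to 1.296 CPM and overlapped each other. Nanog was highest in Nanog E9.5 induced pools (350 ± 3.32 CPM, n = 3), then in Nanog E7.5 induced (91.6 ± 33.3 CPM, n = 3) and Oct4 E7.5 induced pools (27.7 ± 5.44 CPM, n = 3), with no overlap between these neighbours. The E7.5 controls of the 2 lines overlapped, and so did the Oct4 E9.5 induced and control pools at the bottom. For Sox2 the E9.5 controls of the 2 lines were at the top and overlapped each other, and Oct4 E9.5 induced pools overlapped the Nanog line controls but not those of their own line. Nanog E9.5 induced pools stood alone below them. With TMM scaling the order of these 2 control groups turned round. The E7.5 groups overlapped from each neighbour to the next, and Oct4 E7.5 induced pools had the lowest mean (29.2 ± 3.08 CPM, n = 3).

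The balance of the 3 genes within a library shifted with each induction. In these ratios, each level is a CPM per kb of exon. Pou5f1 over Sox2 had a median of 21.98 in Oct4 E7.5 induced pools and 6.11 in their controls, and of 12.0 in Nanog E7.5 induced pools and 5.79 in their controls. In Oct4 E9.5 induced pools it was 3.02, against 0.00910 in controls. Pou5f1 thus exceeded Sox2 in every E7.5 pool and in every Oct4 E9.5 induced pool, and was below it in all other E9.5 pools. Nanog over Sox2 had a median of 4.88 in Nanog E9.5 induced pools and 0.0234 in their controls. At E7.5 it was 2.65 in Nanog induced pools and 0.496 in their controls, and 1.05 in Oct4 induced pools and 0.507 in their controls. No control pool had as much Nanog as Sox2. Of the induced pools, 1 of the 3 of Oct4 E7.5, at 0.839, and all 3 of Oct4 E9.5, at 0.0110 to 0.0159, had less Nanog than Sox2. Nanog over Pou5f1 was 0.0514 in Oct4 E7.5 induced pools and 0.0851 in controls, against 0.202 in Nanog E7.5 induced pools and 0.0858 in controls. It reached 247 in Nanog E9.5 induced pools, where Pou5f1 rested on 3 to 9 reads.

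**Figure D3:**
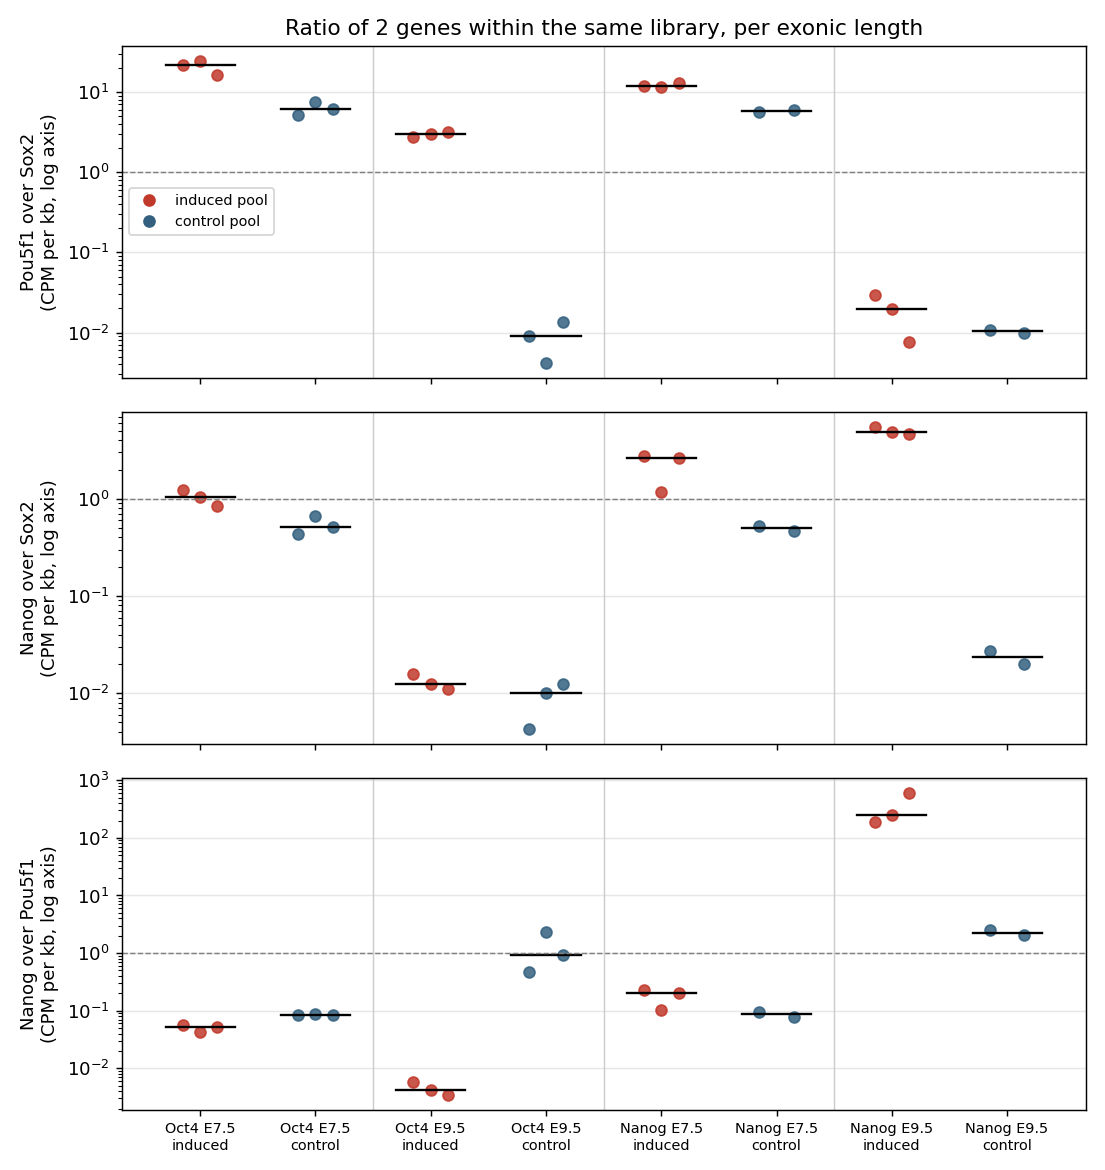
Ratio of 2 genes within 1 library, each as CPM per kb of exon, on a log axis, 1 point per pool with the median as a bar and a dashed line at equal levels. Pou5f1 over Sox2 has a median of 3.02 in Oct4 E9.5 induced pools against 0.00910 in controls, and Nanog over Sox2 has 4.88 in Nanog E9.5 induced pools against 0.0234 in controls.

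The Sox2 gene lies inside Sox2ot, a long noncoding RNA on the same strand. Counts of Sox2 were whole numbers in 22 of 22 libraries, so they show no reads that RSEM shared with Sox2ot. Whether unspliced Sox2ot gave reads counted as Sox2 was not tested. Sox2ot was under 0.6 CPM in every E7.5 pool. At E9.5 it was 8.41 ± 0.684 CPM in Oct4 induced pools and 15.2 ± 1.37 CPM in controls (n = 3 each), without overlap. It fell by 0.85 ± 0.13 on the log2 scale (adjusted p = 3.0e-04), while the log2 fold change of Sox2 in the same libraries was -0.13 and did not pass. In the Nanog line at E9.5 Sox2ot was 11.9 ± 0.964 CPM in induced pools (n = 3) and 13.5 ± 1.37 CPM in controls (n = 2), a log2 fold change of -0.21 ± 0.15 (adjusted p = 0.302). The difference between the 2 inductions was 0.63 ± 0.19 (adjusted p = 0.0302), Nanog minus Oct4, and that of Sox2 had the opposite sign (-0.34). Neural plate and neural progenitor genes are the tissue markers nearest to Sox2 at this stage. Of 14 tested in Oct4 E9.5, 7 fell and 1 rose, and their summed level was 643 to 665 CPM in induced pools and 889 to 969 CPM in controls. Of 13 tested in Nanog E9.5, 5 fell and 1 rose, and the sum was 755 to 839 CPM in induced pools and 803 to 906 CPM in controls. No matched member of this list was at 0 in any group, and its part in the Sox2 values was not tested. Background was 4.61% lower and 4.69% higher in Oct4 E9.5, and 13.0% lower and 15.4% higher in Nanog E9.5.

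Genes known to carry OCT-SOX elements, besides the trio itself, were higher in part in both E7.5 inductions. Of 6 tested in Oct4 E7.5, 4 rose and 0 fell, against 2.25% of all genes called higher, and the median log2 fold change was 0.91 against 0.02 for all genes. Utf1, a chromatin factor of pluripotent cells, rose by 1.41 ± 0.08 (adjusted p = 1.7e-04), with 73.7 ± 3.24 CPM in induced pools and 28.5 ± 0.782 CPM in controls. Lefty1, an inhibitor of Nodal signalling, rose by 4.29 ± 0.63 (adjusted p = 0.00738), with 6.71 ± 2.45 CPM in induced pools and 0.340 ± 0.360 CPM in controls. Lefty1 passed the count filter through its induced pools, so its call says nothing for the list. Fgf4, a growth factor of the epiblast, rose by 0.97 ± 0.21 (adjusted p = 0.0255), and Zscan10, a zinc finger factor, by 0.63 ± 0.14 (adjusted p = 0.0313). In Nanog E7.5, 3 of the same 6 rose and 0 fell, against 2.96% called higher, with a median of 1.21 against 0.00 for all genes. They were Zscan10 (0.64 ± 0.09, adjusted p = 0.00506), Dppa4 (1.78 ± 0.29, 0.00878) and Lefty1 (4.20 ± 0.93, 0.0410), whose controls were at no more than 0.461 CPM. Here too Lefty1 passed the count filter through its induced pools, and its call says nothing for the list. The counts and medians given for both E7.5 inductions include it. In Oct4 E9.5 only 2 of the 6 passed the count filter. Lefty1 passed it through its induced pools alone, so that its call says nothing for the list: its log2 fold change was 5.10 ± 0.56 (adjusted p = 7.9e-06), with 2.68 ± 0.371 CPM in induced pools and at most 0.130 CPM, below the level of 3 counts, in any control pool. Zscan10 rose by 0.96 ± 0.20 (adjusted p = 0.00421). The other 4 targets were under 1 CPM in both groups. In Nanog E9.5 Zscan10 was the only one tested (-0.09 ± 0.31, adjusted p = 0.861).

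Network partners of the trio, a list that also holds Zscan10, Utf1, Fgf4, Fbxo15 and Dppa4 of the targets, were called in part. Of 25 tested in Oct4 E7.5, 8 rose and 1 fell (background 2.25% and 3.91%). The 4 risers of lowest p were Utf1, L1td1, an RNA-binding protein (1.08 ± 0.10, adjusted p = 6.2e-04), Esrrb, an orphan nuclear receptor (1.25 ± 0.17, 0.00299), and Nr0b1, a nuclear receptor that lacks the usual DNA-binding domain (1.38 ± 0.19, 0.00345). Gbx2, a homeobox gene, fell by 1.76 ± 0.19 (adjusted p = 0.00124). In Nanog E7.5, 7 of 21 rose and 3 fell (background 2.96% and 4.82%). The risers of lowest p were L1td1 (1.21 ± 0.12, adjusted p = 9.1e-04), Esrrb (1.42 ± 0.18, 0.00246), Zscan10 and Dppa4. The 3 that fell were Tfcp2l1 (-0.74 ± 0.14, adjusted p = 0.0134), a factor of naive pluripotency, Lin28a (-0.57 ± 0.11, 0.0160), which blocks let-7 maturation, and the threonine dehydrogenase gene Tdh (-1.07 ± 0.23, 0.0473). In Oct4 E9.5, 4 of 11 rose and 0 fell (background 4.69% and 4.61%): Gbx2 (0.88 ± 0.10, adjusted p = 1.4e-05), L1td1 (1.59 ± 0.23, 1.6e-04), Zscan10 and Sall4 (0.51 ± 0.10, 0.0254), a zinc finger partner of Oct4. Gbx2 thus fell under Oct4 induction at E7.5 and rose at E9.5. In Nanog E9.5, 1 of 9 rose and 0 fell, no more than the background of 15.4% and 13.0%. The gene that rose was Gbx2 (0.43 ± 0.15, adjusted p = 0.0420).

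Most markers of the primed epiblast, the tissue in which Pou5f1 is normally made at E7.5, were called higher in both E7.5 inductions. Of 14 tested in Oct4 E7.5, 9 rose and 0 fell, and of 14 in Nanog E7.5, 10 rose and 0 fell, against 2.25% of all genes called higher and 3.91% lower in Oct4 E7.5, and 2.96% and 4.82% in Nanog E7.5. The summed level of the list was 1934 to 3001 CPM in Oct4 E7.5 induced pools and 1183 to 1401 CPM in controls. It was 2671 to 2951 CPM in Nanog E7.5 induced pools and 1374 to 1414 CPM in controls. No member was at 0, and the part of a larger share of epiblast RNA in the Pou5f1 values was not tested. In Oct4 E7.5 the risers of lowest p were Nodal, a TGF-beta ligand (2.72 ± 0.20, adjusted p = 2.4e-04), Foxd3, a forkhead factor (5.81 ± 0.45, 3.4e-04, with 9.53 ± 3.497 CPM in induced pools and 0.171 ± 0.120 CPM in controls), Zic5 (1.07 ± 0.10, 7.6e-04), a zinc finger factor, and the kinase gene Pim2 (1.45 ± 0.16, 0.00115). In Nanog E7.5 they were Fgf5, the classic marker of this state (4.04 ± 0.17, adjusted p = 1.2e-05), Pim2 (1.81 ± 0.10, 4.2e-05), Dnmt3b, a de novo DNA methyltransferase (1.18 ± 0.10, 4.3e-04), and Zic5 (1.14 ± 0.10, 4.3e-04). Foxd3 passed the count filter in Oct4 E7.5 through its induced pools, so its call there says nothing for the list, though the count of risers includes it. Sox3, which like Sox2 is a SoxB1 factor, did not pass in either (-0.77 ± 0.20 in Oct4 E7.5, adjusted p = 0.0533, and -0.28 ± 0.30 in Nanog E7.5, adjusted p = 0.628). At E9.5 the counts were smaller: 3 of 11 rose and 1 fell in Oct4 E9.5, against 4.69% and 4.61% of all genes, led by Pim2 (1.52 ± 0.11, adjusted p = 5.6e-08), Fzd7 (0.25 ± 0.05, 0.00345) and Dnmt3b (0.21 ± 0.05, 0.0215), with Zic5 lower (-0.34 ± 0.10, 0.0389). In Nanog E9.5, 5 of 11 rose, led by Lef1 (0.35 ± 0.08, adjusted p = 0.00608), Sox3 (0.50 ± 0.13, 0.0104), Foxd3 (0.92 ± 0.27, 0.0168) and Dnmt3b (0.24 ± 0.08, 0.0258), and Otx2 (-0.40 ± 0.10, 0.00925) and Zic5 (-0.38 ± 0.12, 0.0223) fell. Of all genes 15.4% were called higher and 13.0% lower there, so the 2 that fell are near the background.

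Other markers of tissue did not all move the same way. The counts that follow are to be read against the shares of all genes called, which were 2.25% higher and 3.91% lower in Oct4 E7.5, 2.96% and 4.82% in Nanog E7.5, 4.69% and 4.61% in Oct4 E9.5, and 15.4% and 13.0% in Nanog E9.5. Trophoblast and extraembryonic ectoderm genes, the other E7.5 site of Sox2, summed to 223 to 340 CPM in Oct4 E7.5 induced pools and 426 to 474 CPM in controls, with 0 of 11 tested called higher and 2 lower. In Nanog E7.5 the sum was 567 to 887 CPM in induced pools and 398 to 571 CPM in controls, with 1 higher and 1 lower of 11. Visceral endoderm genes fell for 8 of 12 in Nanog E7.5 and for 1 of 12 in Oct4 E7.5, a share near the background. Primordial germ cell genes, the only normal site of Pou5f1 at E9.5, summed to 93.5 to 109 CPM in Oct4 E9.5 induced pools and 81.4 to 91.6 CPM in controls, with 1 of 6 tested higher and 0 lower. In Nanog E9.5 the sum was 83.0 to 93.0 CPM in induced pools and 79.4 to 83.4 CPM in controls, again with 1 of 6 higher. Streak and nascent mesoderm genes rose for 9 of 12 and fell for 1 in Oct4 E7.5, and rose for 6 and fell for 1 of 12 in Nanog E7.5. Maternal decidua and blood genes rose for 2 of 12 in Oct4 E7.5 and for 0 of 11 in Nanog E7.5, and fell for none of either. Genes of E9.5 organs fell for 10 of 15 in Oct4 E7.5 and for 7 of 13 in Nanog E7.5, and rose for 1 and 0. They summed to 12.3 to 14.4 CPM in Oct4 E7.5 induced pools and 102 to 137 CPM in controls. In Nanog E7.5 the sum was 8.58 to 24.5 CPM in induced pools and 105 to 127 CPM in controls. The fall of a gene that passed the count filter through its control pools alone says nothing for the list. Which of these genes did so was not determined. Mitochondrially encoded genes, 13 of which were tested, rose for 10 in Nanog E7.5 and fell for 13 in Nanog E9.5. At E9.5 all 13 were also called higher in Nanog line controls than in Oct4 line controls. They were called for 0 in Oct4 E7.5 and fell for 6 in Oct4 E9.5. The part of any of these in the trio's values was not tested, other than by leaving the mitochondrial genes out, which moved no call of the trio.

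The list of opposing factors gave mixed calls. It holds Tcf3, which in this table is the E2A gene, whereas the repressor of pluripotency genes once called by that name is Tcf7l1, listed beside it. In Oct4 E7.5, 1 of 9 rose and 1 fell (background 2.25% and 3.91%): Eomes, a T-box factor of the streak and trophoblast, rose by 2.36 ± 0.18 (adjusted p = 3.0e-04), and Cdx2, which represses Pou5f1 in the trophoblast lineage, fell by 0.99 ± 0.15 (adjusted p = 0.00585). In Nanog E7.5, 1 of 8 rose and 3 fell (background 2.96% and 4.82%). Eomes rose by 3.22 ± 0.18 (adjusted p = 2.6e-04). Nr6a1, the nuclear receptor that shuts Pou5f1 off after gastrulation, fell by 0.53 ± 0.08 (adjusted p = 0.00756), with 227 ± 10.5 CPM in induced pools and 340 ± 3.76 CPM in controls. Cdx2 (-1.28 ± 0.19, adjusted p = 0.0125) and Gata6 (-0.50 ± 0.12, 0.0353) fell as well. In Oct4 E9.5, 3 of 8 rose and 1 fell (background 4.69% and 4.61%): Nr6a1 (0.49 ± 0.06, adjusted p = 1.5e-04), with 222 ± 12.7 CPM in induced pools and 158 ± 12.5 CPM in controls, Gata6 (0.56 ± 0.09, 6.3e-04) and Tcf7l1 (0.29 ± 0.06, 0.00396) rose, and Nr2f1 (-0.20 ± 0.05, 0.0173) fell. In Nanog E9.5, 2 of 8 rose and 0 fell, near the background of 15.4% and 13.0%: Tcf3 (0.68 ± 0.08, adjusted p = 1.3e-04) and Tcf7l1 (0.62 ± 0.15, 0.0221).

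Relatives of Pou5f1 and Sox2 were lower in Oct4 E9.5 in part. Of 8 POU and SoxB family genes tested in Oct4 E9.5, 5 fell and 0 rose, against 4.61% of all genes called lower. Pou3f3, a POU factor of the developing brain, fell by 1.79 ± 0.11 (adjusted p = 4.5e-09), with 11.7 ± 2.06 CPM in induced pools and 38.9 ± 3.24 CPM in controls. Pou3f2 fell by 1.92 ± 0.19 (adjusted p = 1.2e-05), Pou3f4 by 2.04 ± 0.24 (adjusted p = 2.0e-05), and Pou2f1, a broadly made POU factor, by 0.21 ± 0.04 (adjusted p = 0.00525). The SoxB genes Sox3 (-0.01 ± 0.10) and Sox21 (-0.03 ± 0.08) did not pass there. In Nanog E9.5, 1 of 8 fell and 1 rose, about the background of 13.0% and 15.4%. Pou3f3 fell (-0.57 ± 0.13, adjusted p = 0.00438) and Sox3 rose (0.50 ± 0.13, 0.0104), with Sox3 at 25.9 ± 2.23 CPM in induced pools and 17.9 ± 3.19 CPM in controls. Sox2 and Sox3 were thus called in opposite directions in the same libraries. In Oct4 E7.5, 1 of 8 rose (background 2.25%), Sox14 (2.17 ± 0.37, adjusted p = 0.00917), and in Nanog E7.5 0 of 4 were called (background 7.78%).

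**Figure D4:**
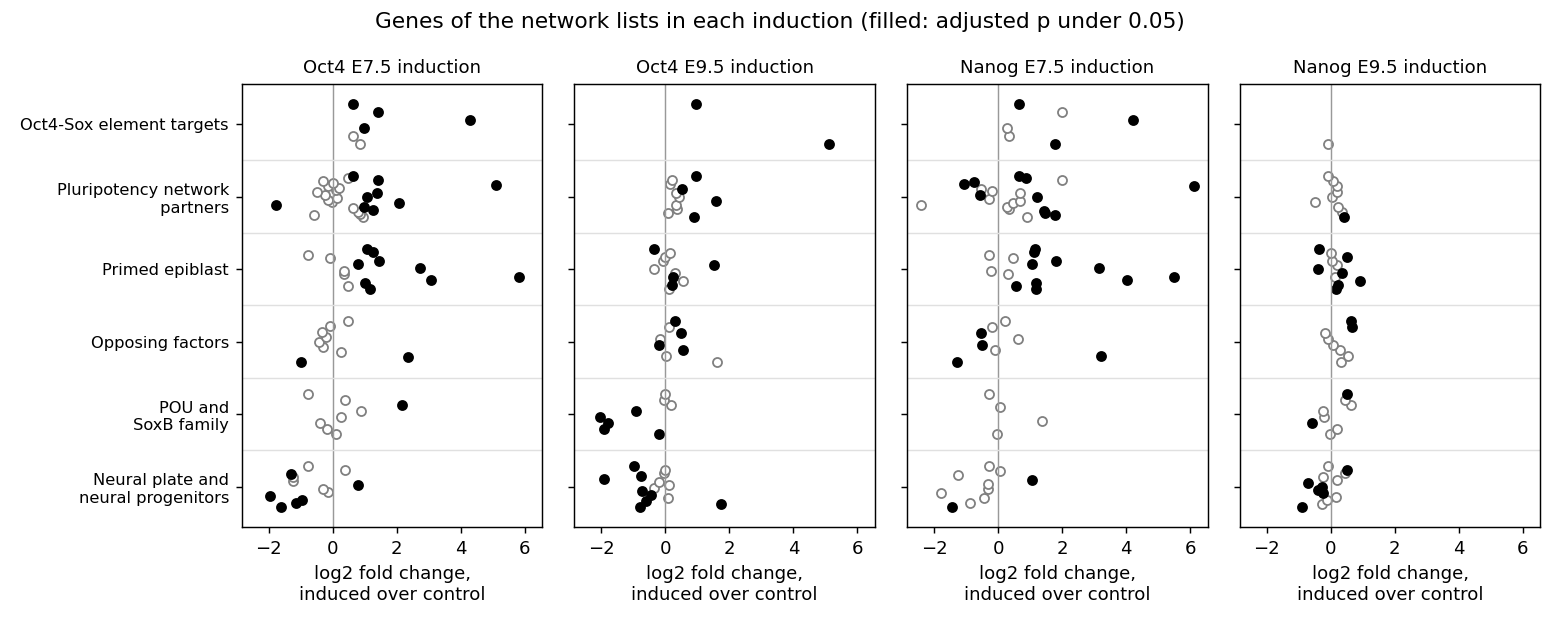
Log2 fold change of every tested gene of 6 lists in the 4 inductions, the trio itself left out; filled points passed the test. Of the primed epiblast list 9 of 14 genes are filled and to the right of 0 in Oct4 E7.5 and 10 of 14 in Nanog E7.5, and of the POU and SoxB family 5 of 8 are filled and to the left in Oct4 E9.5. Both epiblast counts include Foxd3, whose limit is given in the text.

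The genes most like each member across all 22 libraries were found by Pearson's r of log2(CPM + 1) over 12542 genes. This is a description, since the libraries share stages and groups, and a stage difference alone gives a high r. The 5 genes most like Pou5f1 were 1700019D03Rik (r = 0.96), Fam57b, Fst, the lincRNA 5730457N03Rik and Rhpn2 (r = 0.93 each). Fst, the activin inhibitor follistatin, was at 50.3 ± 5.39 CPM in Oct4 E9.5 induced pools and 24.4 ± 4.17 CPM in controls, a rise of 1.07 ± 0.12. 1700019D03Rik was at 12.6 ± 1.41 CPM in Oct4 E9.5 induced pools and 2.36 ± 0.790 CPM in controls, a rise of 2.46 ± 0.22. It also rose in Oct4 E7.5 (1.09 ± 0.11) and Nanog E7.5 (0.85 ± 0.14). Both genes were picked for their likeness to Pou5f1 in these same libraries, so their rises are no separate support. The 5 most like Nanog were Lgr5, a Wnt-pathway receptor (r = 0.81), Gstp1 (0.79), Pttg1 (0.77), Gapdh (0.75) and Prpf31 (0.74). Those most like Sox2 were Bcl2, an inhibitor of cell death, Rap2a, Sike1 and Klc1 (r = 0.97 each) and Slc43a3 (0.96), all of which were higher in E9.5 than in E7.5 controls in both lines. Sox2 itself was higher at E9.5, so their choice by r made this likely. Among the trio itself r was 0.11 for Pou5f1 and Nanog, -0.71 for Pou5f1 and Sox2, and -0.47 for Nanog and Sox2. Over the 8 group means in place of the libraries, only 1 of the 5 was kept for Pou5f1, 0 for Nanog and 1 for Sox2.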

How the data were processed

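The values are expected counts by gene, estimated with RSEM and deposited unscaled as far as the totals show. The submitters' processing notes name the build NCBIM37 and the tools cutadapt, RSEM 1.17, limma and Picard; their roles, strand setting and annotation are not given in the sources used here. The reference annotation (GENCODE mouse release 1, Ensembl release 65) held 37309 of the 37680 gene IDs. RSEM divides reads that fit several genes, so values that are not whole are estimates.

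Counts were rounded to whole numbers and tested with edgeR 4.0.16 (quasi-likelihood F test, TMM, filterByExpr, robust) in R 4.3.3, on the groups compared, two-sided, with Benjamini-Hochberg adjustment over all genes tested and calls under 0.05. Errors of fold changes are SE. The script was tested on simulated data with the same spread for all genes and pools, which the real pools do not have. CPM is a count divided by the sum of all gene rows, times 1000000. A fold change is on the log2 scale. Promoters came from RefSeq GRCm38.p6.

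The trio, 13 gene lists (176 entries, 171 matched to 1 gene ID, 3 divided over gene models and 2 not matched) and tests were chosen with earlier results of these data known. Genes named are the trio, the 5 most like each, overlapping models, and per list and induction up to 4 called genes of lowest p in each direction for the network lists; values of Sox3, Sox21 and Zscan10 where they were not called were chosen after they were seen. The 2 sequencers are not told apart by library. Labels do not say that a replicate number marks a litter or day, so no block was used. No 2 pools of a group were copies: over 20 pairs the lowest chi-square per degree of freedom was 1.60. DESeq2 1.42.0 and the other settings tried are in the closing section. Counting floors cover counting error only, since no molecular identifiers are named.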

Additional observations from a re-analysis of the deposited data

Results flagged for a closer look

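The 6 results below differ between inductions by a test of the difference itself, edgeR's interaction contrast, adjusted over all genes. For Pou5f1 and Nanog the induced transgene is counted with the gene, so those outcomes were largely set by the design. Contrasts of stages also differ in doxycycline regimen and pool size. The log2 fold change under Nanog induction minus that under Oct4 induction at E9.5 was 6.83 for Nanog (adjusted p = 1.6e-09), -8.05 for Pou5f1 (4.1e-09) and -0.34 for Sox2 (0.0248). The change at E9.5 minus that at E7.5 was 7.01 for Pou5f1 in the Oct4 line (7.4e-10), 5.03 for Nanog in the Nanog line (0.00373) and -0.63 for Sox2 in the Nanog line (0.0236). Groups of 2 or 3 pools were not searched for outlying samples.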

How the results depend on the processing

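With DESeq2 size factors in edgeR, with no filter on low counts, or without mitochondrially encoded genes, the fold changes of the 3 genes kept direction and side of the threshold in 34 of 34 results each. Elsewhere these values changed, the cause of which was not tested. In DESeq2 the log2 fold change of Nanog was 2.25 in Nanog E7.5 and 1.62 for the difference of lines at E7.5, both now past the threshold, and 1.38 between E9.5 controls, no longer past it. In 1 model over all 22 libraries Nanog had 0.62 in Oct4 E7.5 and 1.36 between E9.5 controls, no longer past it, and 2.24 in Nanog E7.5 and 1.62 for the E7.5 difference of lines, now past it; Sox2 had -0.33 for the E9.5 difference of lines and -0.63 for the Nanog line difference of stages, both lost. Against the Oct4 line controls Nanog in Nanog E7.5 was 2.28 and passed.

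Counts of called genes moved more. DESeq2 gave 715 for 1297 in Oct4 E9.5, 2348 for 3772 in Nanog E9.5, 2457 for 3829 between E9.5 controls and 232 for 34 in the E7.5 difference of lines. All 22 libraries in 1 model gave 1638 for 991 in Oct4 E7.5, 312 in Oct4 E9.5, 2737 for 1099 in Nanog E7.5, 1958 in Nanog E9.5, 947 between E9.5 controls, 177 in the E7.5 and 229 for 1970 in the E9.5 difference of lines. With no filter it was 1721 in Nanog E7.5, 1996 for 1139 between E7.5 controls and 56 in the E7.5 difference of lines. The Oct4 line controls gave 3744 in Nanog E7.5 and 390 in Nanog E9.5.

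Replicate numbers were not used to pair the samples in the main tests. Same-numbered Oct4 E7.5 pools had correlations of 0.289, 0.323 and 0.0476, and each correlated best with its own number. A pairing of these pools is thus not excluded. With the replicate block, Nanog between E9.5 controls was 1.08 (adjusted p = 0.0653), Sox2 there was -0.0115 in place of 0.0035, neither called, and 2478 genes were called between E7.5 controls. The block changed no other call of the 3 genes.

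Leaving out 1 pool in turn, the log2 fold change of Nanog ran from 0.47 to 0.71 in Oct4 E7.5, from 2.02 to 2.52 in Nanog E7.5, from 1.08 to 1.54 between E9.5 controls and from 1.41 to 1.90 for the E7.5 difference of lines. That of Sox2 ran from -0.45 to -0.21 for the E9.5 difference of lines and from -0.74 to -0.51 for the Nanog line difference of stages. Uncalled differences between controls turned sign: at E7.5 Pou5f1 ran from -0.0526 to 0.10, Nanog from -0.18 to 0.24 and Sox2 from -0.0642 to 0.32, and at E9.5 Pou5f1 from -0.10 to 0.71 and Sox2 from -0.12 to 0.12. Genes called ran from 438 to 1101 in Oct4 E7.5, 625 to 1290 in Oct4 E9.5, 161 to 1383 in Nanog E7.5, 1482 to 3487 in Nanog E9.5, 90 to 3139 between E7.5 controls, 1744 to 3608 between E9.5 controls, 16 to 102 and 837 to 2178 for the differences of lines at E7.5 and E9.5, and 807 to 2376 for the Nanog line difference of stages. A group left with 1 pool is assumed to vary like the others. At E9.5, Pou5f1 outside Oct4 induction and Nanog outside Nanog induction rest on few reads, which limits any statement there.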
